A study of Mus musculus with 6 samples.

Results

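The LPS response of Lpin2 KO RAW-D cells was described by comparing, across all named genes, the Lpin2 KO clones #1 and #2 treated with LPS with the same clones left untreated. These are 4 of the 6 arrays of the series, and each LPS array was paired with the untreated array of the same clone number. RAW-D is a subclone of the mouse macrophage line RAW264.7 that readily forms osteoclasts. The treated cultures received 200 ng/mL LPS for 4 h and the untreated cultures received none. Each KO line is a single clone that was edited with CRISPR/Cas9 and homology-directed repair plasmids and selected with puromycin before cloning, so a difference between the clones covers clonal as well as technical variation. The other 2 arrays are WT RAW-D cells, 1 untreated and 1 treated with LPS in the same way, and they were used only to show where the KO response differed. Total RNA was hybridized to mouse Clariom S arrays with 1 array per culture, and the values are log2 signals of probe sets summarized by RMA, a method that corrects the background, equalizes the distributions of the arrays and combines the probes of a gene.

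LPS is a component of the outer membrane of Gram-negative bacteria. The receptor TLR4, with its co-receptor CD14, passes the signal through the adaptor MyD88 to kinases that release NF-κB and switch on AP-1, and through the adaptor TRIF to IRF factors that switch on type I interferon. NF-κB and AP-1 drive cytokines, chemokines and their own inhibitors, and secreted interferon drives a second set of genes through STAT and IRF complexes. Lipin2, the product of Lpin2, is a phosphatidic acid phosphatase, and macrophages that lack it have been studied for stronger inflammatory responses.

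Named probe sets covered 19505 genes. A signal was called dim in a treatment when neither array exceeded the 95th percentile of its own negative control probes, which lay between 9.12 and 9.45, and between 28.7% and 31.4% of the genes exceeded it on an array. Lpin2 itself gave signals of 7.97 and 8.42 in the untreated clones and 7.52 and 7.98 with LPS. All were dim, as were both WT arrays, so the Lpin2 probe set could not be used to check the labels. Of 27 macrophage markers with a probe set, 20 exceeded the background on all 4 KO arrays and 5 were dim on all of them (Maf, Aif1, Adgre4, Irf8 and Cd84). No marker of neutrophils and mast cells (18 measured), of lymphocytes (17) or of fibroblasts, epithelium and endothelium (23) exceeded the background on any KO array, and of 14 dendritic cell markers only Bst2 and Itgax did. The 2 WT arrays lay close together: 85 genes were over 2-fold higher and 59 over 2-fold lower with LPS, and among 6203 genes above the background in a WT treatment the numbers were 17 and 0. Tlr4 gave 9.80 and 9.47 on the WT arrays, against 12.92 and 13.09 in the untreated KO clones. By its label the untreated WT array was summarized per gene, whereas the remaining 5 arrays are labeled as summarized per exon, and what this adds to the results was not tested.

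With LPS, 1554 genes rose (7.97% of those tested) and 2114 fell (10.8%) in the KO clones at an adjusted p under 0.05 in limma with the clone as a block. Of the genes that rose, 828 were above the background in both treatments, 312 were dim in the untreated cells and 414 were dim in both. Of those that fell, 930 were above the background in both treatments, 473 were dim with LPS and 711 were dim in both. The fit had 1 residual and 5.76 prior degrees of freedom. An exact permutation test of 2 arrays against 2 cannot give a two-sided p under 0.333, so single values were judged by limma alone. Without the block, 1334 genes rose and 1912 fell, and 3170 genes were called by both fits, none of them in opposite directions. The fits without 1 array that are cited below also had no block. A call lost there may reflect the missing array or the lost pairing by clone, which cannot be told apart.

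The clones responded alike in direction. LPS changed 798 genes over 2-fold upward in both clones and 1029 over 2-fold downward in both, and only 1 gene, dim in both treatments, moved over 2-fold in opposite directions. Across genes, the changes of the clones had a correlation of 0.876 over all 19505 genes and of 0.963 over the 6051 genes above the background on both arrays of a treatment, where the points share arrays and genes are not independent replicates. Over 16-fold changes in both clones were found upward for 109 genes and downward for 24. The falls were larger in clone #1: 1555 of the 2114 genes that fell had the larger fall in clone #1, with a median of -1.31 there and -1.05 in clone #2. The rises had nearly the same median, 1.22 in clone #1 and 1.23 in clone #2. The plot of 1 clone against the other shows this as a tail of falls above the diagonal.

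**Figure D1:**
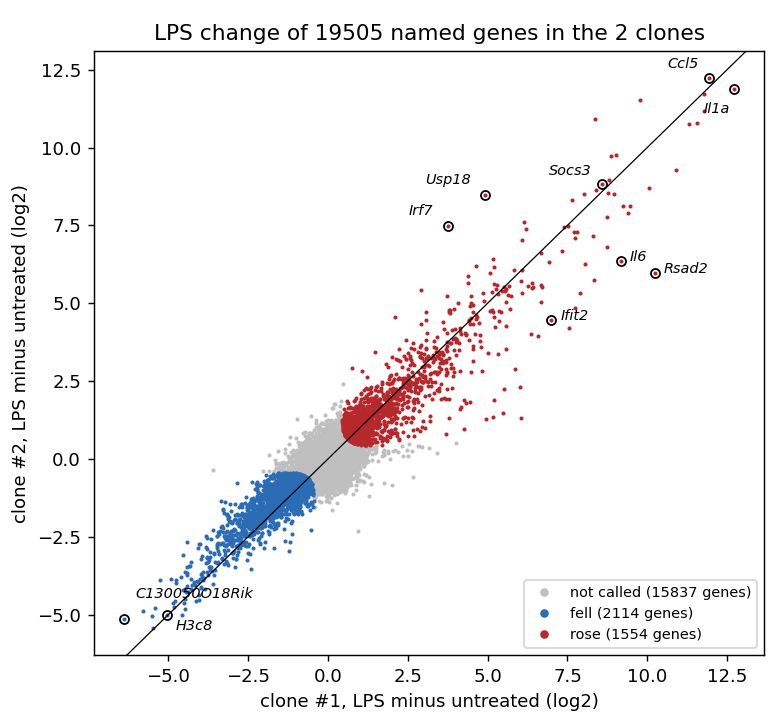
Change with LPS (log2, LPS minus untreated) of each of 19505 named genes in Lpin2 KO clone #1 (x axis) and clone #2 (y axis), with the diagonal as a line. The 1554 genes that rose and the 2114 that fell lie in the same 2 quadrants. Irf7 and Usp18 (dim untreated in clone #2) stand off the diagonal, as do Rsad2, Il6 and Ifit2 (dim untreated in both clones, larger rise in clone #1).

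The largest rises by lower bound belonged to chemokines, cytokines, enzymes and interferon-stimulated genes that were dim in the untreated clones. Their folds are lower bounds, computed with the background percentile wherever the untreated signal was below it. Acod1, the enzyme that makes itaconate from a citric acid cycle intermediate, gave 8.92 and 8.88 untreated and 17.74 and 17.84 with LPS, at least 336-fold higher (adjusted p = 1.77e-06). Cxcl2, a neutrophil-attracting chemokine, gave 5.87 and 5.996 untreated and 17.65 and 17.71 with LPS, at least 312-fold higher (adjusted p = 8.92e-07). Ccl5, which attracts T cells and monocytes, gave 5.20 and 4.70 untreated and 17.15 and 16.92 with LPS, at least 199.7-fold higher (adjusted p = 8.92e-07). In all 3 genes, picked for the size of their rise, the LPS signals of the clones lay close together and far above both untreated signals. Il1b followed with at least 164-fold, Il1a with at least 146-fold, Oasl1 with at least 102-fold, Ptges with at least 101.3-fold, Serpinb2 with at least 82.1-fold, Csf3 with at least 80.2-fold, Ifit3 with at least 77.5-fold, Ccl22 with at least 68.2-fold and Ccl4 with at least 66.1-fold. These 12 include 3 chemokines of the CC class, 1 of the CXC class, both IL-1 agonists and 2 interferon-stimulated genes.

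Among genes above the background on all 4 arrays, the largest rises were those of Il1rn (6.65 ± 0.18, log2 change ± moderated SE), Ptgs2 (5.70 ± 0.23), Jdp2 (5.604 ± 0.18), Pim1 (5.52 ± 0.18), Tnfrsf1b (5.36 ± 0.18) and Dusp5 (5.31 ± 0.20). The SE values are those of limma, which draw mostly on all genes, and are not the spread of a gene between the 2 clones. Usp18, Ifi211, Cxcl10, Ifih1, Irf7 and Slfn5, all induced by interferon, and Tnfaip3 exceeded the background untreated only in clone #1. Their changes in clone #1 were 4.92, 6.07, 6.41, 5.16, 3.74, 4.62 and 5.64 in that order, and no exact change is given for clone #2. Il1rn, the antagonist of the IL-1 receptor, gave 10.73 and 10.33 untreated and 17.41 and 16.96 with LPS. Ptgs2, the inducible cyclooxygenase, gave 11.24 and 11.88 untreated and 17.33 and 17.21 with LPS. Pim1, a serine/threonine kinase, gave 10.22 and 9.64 untreated and 15.79 and 15.12 with LPS. In all 3 genes, picked for the size of their rise, both LPS arrays exceeded both untreated arrays.

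**Figure D2:**
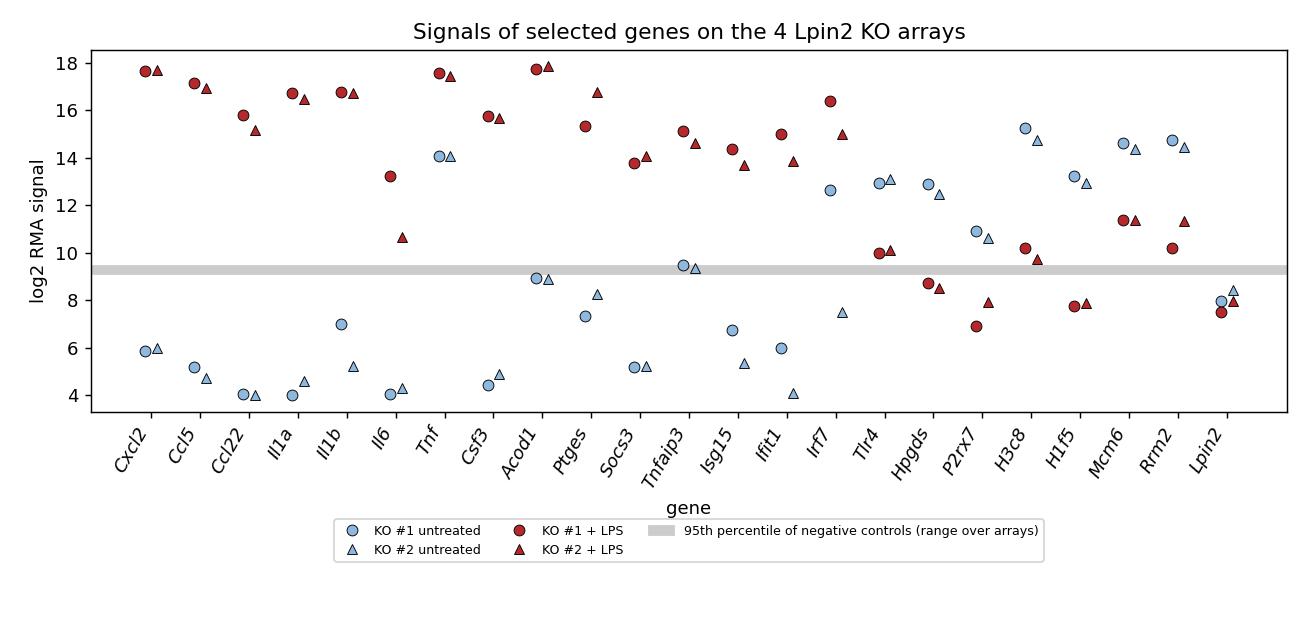
Log2 RMA signal (y axis) of 23 genes (x axis) on the 4 KO arrays, blue untreated and red with LPS, circles for clone #1 and triangles for clone #2, with the range of the background percentile (9.12 to 9.45) in grey. Cxcl2, Ccl5 and Il1a cross from below the grey band to above 16, H1f5 and Hpgds cross from above it to below it, and Irf7 is the gene here whose untreated signals lie farthest apart (12.65 and 7.51).

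The promoter windows of RefSeq (build GRCm38.p6, 250 bases before to 50 after a start) were searched for short motifs on both strands, as a description of the sequences and not of factor binding. A window was found for 15691 of the named genes, 19143 windows in all. The κB motif GGGNNTTNCC was present in 7.27% of the 1622 windows of genes that rose, 5.54% of the 2291 windows of genes that fell and 4.95% of all windows. The interferon-stimulated response element GAAANNGAAA was present in 6.35%, 2.31% and 3.35% in the same order. AP-1 (TGANTCA) was present in 8.08%, 4.93% and 7.15%. In the list of NF-κB subunits and inhibitors 11 of 23 windows (47.8%) held the κB motif, in the chemokine list 8 of 29 (27.6%), and in the list of interferon-stimulated genes 34 of 74 windows (45.9%) held the response element. The 250 bases before the start of 4 genes that rose are shown, chosen after their values were seen: Cxcl2 and Tnip1 with κB matches, Ifit3 with response elements, and Cxcl10 with both. Capitals mark the matches, on either strand. The positions are chr5:90903649-90903898 (+ strand) for Cxcl2, chr11:54962941-54963190 (- strand) for Tnip1, chr5:92348890-92349139 (- strand) for Cxcl10 and chr19:34583279-34583528 (+ strand) for Ifit3.
Cxcl2: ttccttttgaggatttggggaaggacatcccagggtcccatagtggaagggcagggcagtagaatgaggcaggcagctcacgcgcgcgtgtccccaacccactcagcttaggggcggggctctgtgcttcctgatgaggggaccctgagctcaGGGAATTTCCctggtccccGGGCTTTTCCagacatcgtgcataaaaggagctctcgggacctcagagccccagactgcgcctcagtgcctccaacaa
Tnip1: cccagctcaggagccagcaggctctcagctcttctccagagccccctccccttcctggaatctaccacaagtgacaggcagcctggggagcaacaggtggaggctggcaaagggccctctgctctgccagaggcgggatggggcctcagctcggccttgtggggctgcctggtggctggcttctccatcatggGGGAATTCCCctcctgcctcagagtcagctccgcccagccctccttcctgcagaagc
Cxcl10: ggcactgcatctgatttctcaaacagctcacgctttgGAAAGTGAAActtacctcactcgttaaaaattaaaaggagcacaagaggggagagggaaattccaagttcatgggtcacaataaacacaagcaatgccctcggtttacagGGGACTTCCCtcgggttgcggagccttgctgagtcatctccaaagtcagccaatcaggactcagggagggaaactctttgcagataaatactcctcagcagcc
Ifit3: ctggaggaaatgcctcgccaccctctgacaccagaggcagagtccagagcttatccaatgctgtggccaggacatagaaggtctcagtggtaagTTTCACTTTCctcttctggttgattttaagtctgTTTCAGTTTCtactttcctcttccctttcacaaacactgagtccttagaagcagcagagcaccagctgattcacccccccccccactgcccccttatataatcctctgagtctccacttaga
The matches begin at -97 and -78 in Cxcl2, at -57 in Tnip1, at -213 (response element) and -103 (κB) in Cxcl10, and at -156 and -122 in Ifit3, counted from the start.

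Of 27 measured genes of the TLR4 receptor, its adaptors and proximal kinases, 16 rose and 3 fell, with a median change of 0.90 against -0.03 over all genes. With genes dim in 1 treatment at their bound and genes dim in both at no change, the median was 0.49. Over all genes 7.97% rose and 10.8% fell, the shares beside which this and each later list count stands. List counts include members dim in both treatments, which here were 1 of the rises and 2 of the falls. The receptor itself fell. Tlr4 gave 12.92 and 13.09 untreated and 9.97 and 10.13 with LPS, 7.77-fold lower (adjusted p = 7.39e-05). Both LPS arrays were below both untreated arrays and just above the background. Myd88, the adaptor of most TLRs, rose from 12.94 and 12.66 to 14.56 and 14.34, 3.13-fold (adjusted p = 0.000886). Ticam1, which encodes the adaptor TRIF, rose by 2.47 on the log2 scale, and Cd14 by 0.90. The larger rises of this list were those of Traf1 (at least 20.8-fold), which binds TNF receptors, Peli1 (23.7-fold, above the background untreated in clone #1 only), a ubiquitin ligase of IRAK complexes, and Irak3 (8.92-fold), an IRAK family member that dampens TLR signaling. Tlr2 (0.13 ± 0.18, adjusted p = 0.712) and Map3k7, which encodes TAK1 (0.18 ± 0.18, adjusted p = 0.605), did not pass the test, and Irak1 and Irak4 have no named probe set. Without the untreated array of clone #1, 10 genes of the list rose, and without that of clone #2, 9.

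Of 19 NF-κB subunits and inhibitors, 14 rose, none fell, and the median change was 1.91. Several of them are inhibitors. Tnfaip3, which encodes the ubiquitin-editing inhibitor A20, gave 9.46 and 9.34 untreated and 15.10 and 14.62 with LPS, 43.9-fold higher (adjusted p = 1.19e-05), and only clone #1 exceeded the background untreated. Tnip1, a partner of A20, rose from 11.37 and 11.44 to 14.49 and 14.63. Bcl3, a nuclear IκB protein, rose 10.9-fold. Nfkbid rose by 3.11, Nfkbia, which encodes IκBα, by 2.43 and the subunit gene Rel by 1.61 on the log2 scale. From dim untreated signals, Nfkbiz rose at least 7.65-fold, Nfkbie at least 5.45-fold and the subunit gene Nfkb2 at least 4.89-fold. Without 1 array in turn, 11 to 12 of the 19 rose.

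Of 32 immediate early and AP-1 factors, 15 rose and 1 fell. Jdp2, a bZIP factor that binds AP-1 sites and is required for osteoclast formation in mice, gave 9.94 and 10.07 untreated and 15.61 and 15.62 with LPS, 48.6-fold higher (adjusted p = 8.87e-06). The LPS signals of the clones were nearly equal. Ier3 rose 24.6-fold and Fosl1, a Fos family member, 10.2-fold. Klf10, a zinc finger repressor, fell from 10.33 and 10.58 to dim signals of 7.42 and 8.78, at least 2.03-fold lower, and lost the call when either untreated array was left out (adjusted p up to 0.103). Without the block 2 genes of this list fell, and without either untreated array 10 rose and 0 fell. Of 29 signaling brakes and mRNA decay factors, 16 rose and 3 fell, and 5 of those that rose were dim in both treatments. Socs3, which inhibits JAK kinases, gave 5.19 and 5.21 untreated and 13.78 and 14.05 with LPS, at least 22.9-fold higher (adjusted p = 1.77e-06). Dusp5, a phosphatase of ERK, rose 39.7-fold. Inpp5d (SHIP1), a lipid phosphatase, Zfp36l2, an mRNA decay factor, and Ptpn6 (SHP-1), a tyrosine phosphatase, fell 2.75-, 2.27- and 2.16-fold, and Ptpn6 lost the call when any 1 of 3 arrays was left out (adjusted p up to 0.14).

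Of 18 measured IL-1 family genes and receptors, 10 rose and 2 fell, and without the block 8 rose and none fell. Without any 1 array, 7 to 11 rose and 0 fell. Il1b, the fever-inducing cytokine that needs cleavage by caspase-1, gave 6.999 and 5.21 untreated and 16.77 and 16.73 with LPS (adjusted p = 1.28e-05). Il1a gave 3.99 and 4.59 untreated and 16.71 and 16.46 with LPS (adjusted p = 1.77e-06). The untreated signals of Il1b were apart between the clones, both dim, while the LPS signals were nearly equal. Il33 rose at least 13.7-fold from dim signals, and Il1f9 at least 1.64-fold with only clone #2 above the background.

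Among 25 cytokines and receptors of the IL-6, IL-10 and IL-12 families, 12 rose and 1 fell, and without either untreated array 8 rose and 0 fell. Il27, an IL-12 family subunit, rose from 4.81 and 5.23 to 14.88 and 13.92, at least 32.1-fold. Lif, an IL-6 family cytokine, rose at least 13.7-fold, and Il15 at least 11.4-fold. Il6 gave 4.04 and 4.30 untreated and 13.21 and 10.67 with LPS, at least 5.84-fold higher (adjusted p = 0.000175). Both LPS arrays exceeded the untreated arrays, but clone #1 stood well above clone #2. The receptor chain Il6ra fell 2.41-fold (adjusted p = 0.00624), a call lost without either untreated array (adjusted p up to 0.0772). Of 13 colony-stimulating factors and receptors, Csf3, which encodes G-CSF, rose from 4.44 and 4.91 to 15.77 and 15.67. Csf1 gave 5.15 and 4.90 untreated and 10.9999 and 7.80 with LPS, so only clone #1 exceeded the background, and the call was lost without either untreated array (adjusted p up to 0.147). Csf1r, the receptor that macrophages need to survive, fell from 16.95 and 16.88 to 15.43 and 15.70, 2.56-fold lower (adjusted p = 0.00294). Ifnb1, which encodes interferon β, gave 5.70 and 6.21 untreated and 8.05 and 6.30 with LPS, all dim, and did not pass the test (adjusted p = 0.137).

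Of 36 TNF superfamily ligands and receptors, 12 rose and 3 fell, and 7 rose without the block. Of the 12 and the 3, 5 and 1 were dim in both treatments. Only 5 rose without the untreated array of clone #1 and 4 without that of clone #2. Tnf gave 14.07 and 14.05 untreated and 17.56 and 17.44 with LPS, 10.8-fold higher (adjusted p = 4.16e-05). Unlike Il1b, Tnf was bright on the untreated arrays. Tnfrsf1b (TNFR2) rose 41.1-fold and Cd40, a co-stimulatory receptor, at least 11.9-fold. Tnfrsf11a, which encodes RANK, the receptor for the osteoclast factor RANKL, fell from 12.67 and 12.58 to 11.31 and 11.51, 2.32-fold lower (adjusted p = 0.00435), and Tnfrsf23 fell 2.44-fold, a call lost without any 1 of 3 arrays (adjusted p up to 0.182).

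Of 37 chemokines, 14 rose and 1 fell, while 24 were dim in both treatments. Ccl22, an attractant of cells with CCR4, gave 4.04 and 3.99 untreated and 15.80 and 15.17 with LPS. Ccl4 rose from 6.89 and 6.69 to 15.66 and 15.22. Cxcl10, an attractant of cells with CXCR3, gave 10.03 and 8.89 untreated and 16.44 and 14.40 with LPS, 62.2-fold higher with the dim untreated signal of clone #2 taken as it stands (adjusted p = 1.97e-05). In Cxcl10 clone #1 was higher than clone #2 in both treatments. From dim signals Cxcl3 rose at least 23.3-fold, Ccl7 at least 4.95-fold and Cxcl11 at least 2.87-fold, the last with only clone #1 above the background, and Ccl3 and Ccl2 rose by 3.74 and 3.36 on the log2 scale from bright ones. Cxcl14 fell from 9.62 and 10.10 to dim signals of 8.30 and 9.29 (adjusted p = 0.0107) and was called neither without the block (adjusted p = 0.109) nor without any 1 of 3 arrays (up to 0.392). Of 33 chemoattractant receptors, 13 rose and 2 fell, although 7 of those that rose were dim in both treatments. Gpr84, a receptor for medium-chain fatty acids, rose 9.97-fold, Ccrl2, an atypical receptor, at least 8.42-fold, and Ptafr, the receptor for platelet-activating factor, 5.26-fold. Cx3cr1, the fractalkine receptor, fell 2.17-fold (adjusted p = 0.0132), a call lost without the untreated or the LPS array of clone #1 (adjusted p up to 0.0966).

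Interferon-stimulated genes formed the list with the largest median rise: 65 of 76 rose, none fell, and the median change was 3.44 (2.91 with genes dim in 1 treatment at their bound and genes dim in both at no change). The median signal of the list went from 9.61 to 14.03 in clone #1 and from 7.82 to 12.28 in clone #2. The list therefore started from different levels in the clones. Untreated, 41 of the 76 genes exceeded the background in clone #1 and 22 in clone #2, where the list median was dim. The size of the rise in clone #2 is thus not known. Untreated, 43 of the 76 genes were over 2-fold higher in clone #1 and none over 2-fold higher in clone #2, where 139 and 93 of all 19505 genes were. With LPS the numbers were 52 and 0 of 76, against 304 and 164 of all genes. One culture per clone and treatment was measured, so a clone difference and a culture difference cannot be told apart.

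Individual interferon-stimulated genes showed this in different ways. Oasl1, an OAS-like protein, gave 7.90 and 4.98 untreated and 16.25 and 15.89 with LPS (adjusted p = 5.12e-05). Ifit3, an antiviral RNA-binding complex member, gave 7.25 and 6.82 untreated and 16.64 and 14.70 with LPS (adjusted p = 1.61e-05). Ifih1, which encodes the RNA sensor MDA5, gave 10.87 and 8.76 untreated and 16.03 and 15.18 with LPS, 55.3-fold higher with the dim untreated signal of clone #2 taken as it stands (adjusted p = 4.33e-05). Isg15, Ifit1, Gbp2, Cmpk2 and Mx2 also rose from dim signals, at least 24.8-, 32.9-, 8.59-, 26.4- and 9.66-fold in that order. Probes of near-identical family members, such as Ifit3 and Ifit3b, may share signal.

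Some of these genes had a far higher untreated signal in clone #1. Irf7, the factor that amplifies interferon production, gave 12.65 in clone #1 and 7.51 in clone #2 untreated, and 16.40 and 14.998 with LPS. Usp18, a brake on interferon signaling, gave 11.48 and 6.73 untreated and 16.40 and 15.23 with LPS. The untreated signals of clone #2 were dim in both genes, so the size of the change there is not known. Irf7 had an adjusted p of 0.00242 that went to 0.0657 without the block and up to 0.168 without any 1 of 3 arrays, and the call of Usp18 was lost without the LPS array of clone #1 (adjusted p = 0.0761). Rtp4, a chaperone for chemosensory receptors, and Pla2g7, a phospholipase that degrades platelet-activating factor, also had lower untreated signals in clone #2, dim there. Oasl1 was dim untreated in both clones, so its untreated levels cannot be compared. Nfic, a CCAAT-binding factor, fell to a dim signal in both clones. Rtp4, Pla2g7 and Nfic were not called without the block (adjusted p of 0.0641, 0.0979 and 0.0713). A second set had the larger rise in clone #1 with the signals taken as they stand. Rsad2, which encodes the antiviral enzyme viperin, gave 4.43 and 3.92 untreated and 14.68 and 9.90 with LPS, and Ifit2 gave 6.98 and 5.93 untreated and 13.97 and 10.41 with LPS. The untreated signals of Rsad2 and Ifit2 were dim in both clones, so their untreated levels cannot be compared. Il6, Apol9a, Cd40 and Ifi209 also had the larger rise in clone #1. Rsad2, Ifit2 and Apol9a lost the call without either untreated array (adjusted p up to 0.118).

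Without 1 array in turn, 39 to 68 of the 76 interferon-stimulated genes rose, the lowest count being that without the untreated array of clone #2. Among 25 interferon, IRF, STAT and JAK genes, 9 rose and 2 fell, while 6 rose without the block, 4 rose without the untreated array of clone #2, and 6 rose and 0 fell without that of clone #1. Stat2, a subunit of the interferon-responsive factor complex, gave 9.77 and 9.14 untreated and 13.73 and 12.65 with LPS, 13.3-fold higher (adjusted p = 4.46e-05), with only clone #1 above the background untreated. Jak2 rose 5.15-fold. Ifnar2, a chain of the interferon receptor, fell from 15.19 and 15.09 to 13.93 and 14.06, 2.21-fold lower (adjusted p = 0.00511, and 0.0509 without the untreated array of clone #1).

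**Figure D3:**
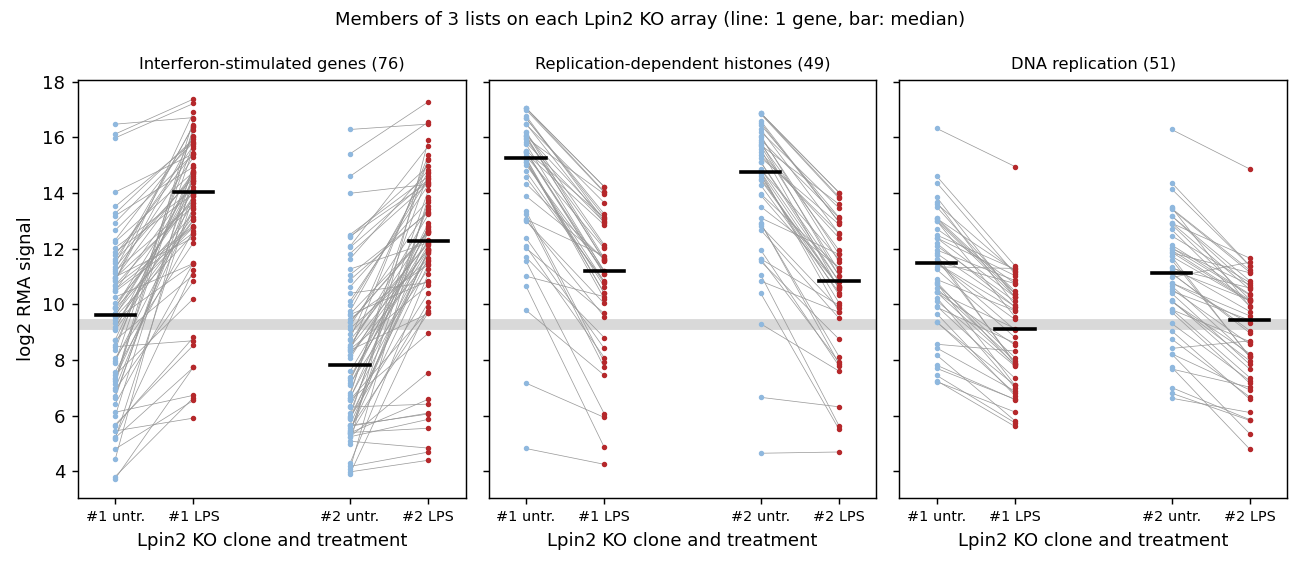
Log2 RMA signal (y axis) of every measured member of 3 lists on each KO array, with a thin line joining the untreated and LPS signal of a gene in a clone, a bar at the median and the background percentile in grey. The medians of the interferon-stimulated genes (76) are 9.61 and 14.03 in clone #1 and 7.82 and 12.28 in clone #2, while those of the histones (49) fall from 15.26 to 11.18 and from 14.76 to 10.82.

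Of 20 genes of MHC class I, peptide loading and the immunoproteasome, 14 rose and none fell. The median change was 1.07, but 0.25 with dim genes at their bound or at no change. The count of rises was lower without the block, where 6 rose. It also varied widely with the array left out, in fits that had no block, so the lost array and the lost pairing cannot be told apart there. Tap1, a subunit of the peptide transporter, gave 10.87 and 10.23 untreated and 14.96 and 13.72 with LPS, 13.8-fold higher (adjusted p = 5.64e-05). The nonclassical H2-T23 rose 6.43-fold, a call lost without the untreated array of clone #2 or the LPS array of clone #1 (adjusted p up to 0.177), and H2-T24 rose 4.19-fold with the block only (adjusted p = 0.00038, and 0.146 without it). Both exceeded the background untreated in clone #1 alone. Among 26 genes of co-stimulation, checkpoints and MHC class II, 7 rose and 4 fell, but 5 and 1 without the untreated array of clone #1, 4 and 2 without that of clone #2, and 7 and 2 without the LPS array of clone #2. Of the 4 genes that fell, 3 were dim in both treatments. Cd274, which encodes PD-L1, rose from 7.5 and 6.60 to 13.32 and 12.66, at least 12.1-fold. Havcr2 (TIM-3) fell from 14.12 and 13.94 to 11.65 and 12.25, 4.24-fold lower (adjusted p = 0.00108). Lgals9, which encodes its ligand galectin-9, gave 12.59 and 9.12 untreated and 15.67 and 13.84 with LPS, and its call was lost without the block (adjusted p = 0.0786).

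Inflammasome and pyroptosis genes moved in both directions, with 8 of 27 rising and 6 falling, and 5 rising without either untreated array. Nlrp3, the sensor that assembles the inflammasome, gave 10.37 and 10.31 untreated and 13.80 and 13.04 with LPS, 8.44-fold higher (adjusted p = 0.000163). Casp4, the caspase that binds LPS in the cytosol, rose 20.6-fold, and Mlkl, the effector of necroptosis, 5.94-fold. P2rx7, the ATP-gated channel that triggers NLRP3, gave 10.93 and 10.63 untreated and dim signals of 6.92 and 7.91 with LPS, at least 2.54-fold lower (adjusted p = 0.000431). Txnip and Nek7, both binding partners of NLRP3, fell 3.56- and 2.13-fold, and Nek7 was not called without the untreated array of clone #1 (adjusted p = 0.0543). Nlrp3 thus rose while P2rx7, Txnip and Nek7 fell. These 3 were picked from the 6 genes that fell, and Casp4 and Mlkl rose with Nlrp3.

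Of 21 enzymes of eicosanoid synthesis, 6 rose and 9 fell, and without any 1 array 3 to 4 rose and 3 to 6 fell, with the fewest falls (3) without the untreated array of clone #1. Ptges, the inducible PGE synthase, gave 7.32 and 8.28 untreated and 15.34 and 16.77 with LPS (adjusted p = 2.71e-06). Ptgs2 rose 52.1-fold. Hpgds, the PGD synthase of hematopoietic cells, fell from 12.90 and 12.45 to dim signals of 8.72 and 8.51, at least 9.45-fold lower (adjusted p = 2.39e-05). Alox5, which starts leukotriene synthesis, fell at least 2.25-fold to a dim signal, and its partner Alox5ap fell 2.60-fold (adjusted p = 0.004, and up to 0.0943 without either untreated array).

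Of 17 enzymes of itaconate, nitric oxide, arginine and tryptophan metabolism, 7 rose and 1 fell, and 0 fell without any 1 array. Gch1, which makes the cofactor of nitric oxide synthase, rose 11.4-fold and Odc1, the first enzyme of polyamine synthesis, 9.79-fold. Nos2, the inducible nitric oxide synthase, gave 4.74 and 5.70 untreated and 9.92 and 7.06 with LPS, so only clone #1 exceeded the background (adjusted p = 0.0252, and 0.0623 without the block). Among 28 genes of antioxidant, heme and metal defense, 11 rose and 6 fell, and without either untreated array 6 rose and 3 fell. Saa3, an acute-phase protein, rose from 5.38 and 6.21 to 14.34 and 14.74, at least 35.3-fold. Lcn2, which binds bacterial siderophores, rose at least 12.1-fold, and Slc39a14, a zinc and iron importer, 12.3-fold. Slc40a1, which encodes the iron exporter ferroportin, fell from 10.77 and 11.57 to dim signals of 6.65 and 7.02, at least 3.33-fold lower (adjusted p = 2.39e-05). Gclc, the rate-limiting enzyme of glutathione synthesis, fell 7.08-fold and Gpx4, which reduces lipid peroxides, 3.52-fold, whereas Slc7a11, the cystine importer, rose 7.88-fold.

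Of 34 scavenger receptors, lectins and Fc receptors, 9 rose and 9 fell. The rises numbered 6 without the block, 3 without the untreated array of clone #1 and 5 without that of clone #2 or the LPS array of clone #1, and 6 fell without the untreated array of clone #2. Sirpa, the receptor for CD47, gave 14.89 and 15.33 untreated and 11.75 and 12.71 with LPS, 7.34-fold lower (adjusted p = 0.000149). Colec12, a scavenger receptor, fell 3.26-fold and Trem2, a lipid-sensing receptor, 2.79-fold. Clec4e (Mincle), a receptor for mycobacterial glycolipid, rose 3.68-fold. Fcgr1 gave 11.87 and 10.05 untreated and 14.58 and 11.67 with LPS, and its call was lost without the block (adjusted p = 0.243). Of 27 macrophage identity genes, 6 fell (22.2%) and 2 rose (7.41%), against 10.8% and 7.97% of all genes. The falls numbered 3 without either array of clone #1 and 4 without the untreated array of clone #2. Cebpa, a factor of the myeloid lineage, fell from 10.80 and 10.72 to dim signals, at least 2.51-fold lower, while Mrc1, the mannose receptor, rose from dim signals of 6.54 and 5.62 to 11.19 and 10.24, at least 2.5-fold.

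Of 27 osteoclast and bone resorption genes, 14 rose and 3 fell, and 4 of those that rose were dim in both treatments. The median change was 0.83, but 0.08 with dim genes at their bound or at no change. Without the untreated array of clone #1, 8 rose, and 1 fell without any 1 array other than the LPS array of clone #2. Src, the kinase needed for the ruffled border of osteoclasts, gave 5.32 and 5.87 untreated and 12.64 and 12.54 with LPS, at least 9.15-fold higher (adjusted p = 8.87e-06). Itgav, the αV integrin chain, rose 4.12-fold. Acp5, which encodes the marker enzyme TRAP, gave 12.26 and 12.78 untreated and 13.62 and 14.63 with LPS, 3.04-fold higher (adjusted p = 0.00181, and up to 0.17 without either untreated array). Nfatc1, the master factor of osteoclast formation (14.40 and 14.79 untreated, 14.32 and 15.02 with LPS), and Ctsk, which encodes cathepsin K (12.03 and 10.15, then 12.41 and 10.88), did not pass the test (adjusted p of 0.858 and 0.0934). Atp6v0d2, a proton pump subunit of osteoclasts, gave 10.80 and 12.47 untreated and 9.43 and 11.10 with LPS. Its change was nearly equal in the clones, but the clones differed by more than the change, and without the block it was not called (adjusted p = 0.288).

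Among 25 integrin and adhesion genes, 9 rose and 4 fell. Tnc, the matrix protein tenascin-C, rose from 4.64 and 5.16 to 15.53 and 14.42, at least 47.8-fold (adjusted p = 1.28e-05). Itga5, the fibronectin receptor chain, rose 11.99-fold, and Itgb5 fell from 11.08 and 11.46 to dim signals of 6.91 and 7.39, at least 3.56-fold lower. Of 25 genes of the plasminogen system and matrix proteases, 10 rose and 1 fell, and 5 of those that rose were dim in both treatments. Serpinb2, an inhibitor of plasminogen activators, gave 4.52 and 4.66 untreated and 16.07 and 15.44 with LPS (adjusted p = 1.77e-06). Timp1, an inhibitor of matrix metalloproteinases, rose at least 35.9-fold and Plaur, the urokinase receptor, 10.99-fold.

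The lists with the largest shares of falls were those of the dividing cell. Of 49 replication-dependent histone genes, which supply histones during S phase, 47 fell and none rose, with a median change of -3.55, and all 12 of the largest falls among genes above the background in both treatments were histone genes. H3c8 gave 15.25 and 14.76 untreated and 10.21 and 9.73 with LPS, 32.8-fold lower (adjusted p = 1.19e-05). H2ac8 fell from 15.76 and 15.57 to 11.18 and 10.55, H2bc13 from 15.26 and 14.66 to 10.40 and 10.05, and H4c14 from 15.47 and 15.10 to 11.08 and 10.82. The linker histone H1f5 fell from 13.24 and 12.92 to dim signals of 7.74 and 7.86, at least 12.5-fold lower. Untreated and LPS signals did not overlap in any of these genes, which were named for the size of their falls. Over the list, the falls were of like size in both clones (medians of -3.56 and -3.57). Many histone genes are near-identical, so probes may share signal between copies. Without 1 array in turn, 46 to 47 of the 49 fell.

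Of 51 DNA replication genes 49 fell, of 63 genes of mitosis and the kinetochore 60 fell, and none of either list rose, with medians of -2.16 and -2.15. With dim genes at their bound or at no change, the medians were -1.27 and -1.76. In each of these lists, 7 of the genes that fell were dim in both treatments. Mcm6, a subunit of the replicative helicase, gave 14.60 and 14.37 untreated and 11.38 on both LPS arrays, 8.59-fold lower (adjusted p = 7.05e-05). Dnmt1, which copies DNA methylation at the fork, fell from 13.67 and 13.48 to 9.98 and 9.92, 12.4-fold lower (adjusted p = 3.30e-05). Plk1, the mitotic kinase, fell 7.01-fold, Kif20b, a kinesin of cytokinesis, 7.20-fold and Nusap1, a spindle protein, 7.19-fold. In these bulk samples, fewer cycling cells and less of these RNAs per cell cannot be told apart. Without 1 array in turn, 37 to 45 of the replication genes and 51 to 57 of the mitotic genes fell.

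Of 33 DNA repair and Fanconi genes, 27 fell and none rose, and 10 of those that fell were dim in both treatments. Topbp1, a scaffold of the replication checkpoint, fell 4.89-fold and Rad54l, of homologous recombination, at least 4.4-fold. Of 29 nucleotide pool enzymes, 9 fell and 1 rose. Rrm2, the regulated subunit of ribonucleotide reductase, gave 14.73 and 14.44 untreated and 10.18 and 11.35 with LPS, 14.1-fold lower (adjusted p = 0.000354), Tyms, which makes thymidylate, fell 3.28-fold, and Mthfd2, a mitochondrial folate enzyme, rose 2.56-fold (adjusted p = 0.00669, and 0.0633 without the untreated array of clone #2). Of 37 G1 cyclins, Myc, E2F and CDK inhibitor genes, 21 fell and 5 rose, and 2 rose without any 1 array other than the LPS array of clone #2. E2f8, a repressor of the E2F family, fell from 14.74 and 14.29 to 10.31 and 10.64, 16.4-fold lower (adjusted p = 6.49e-05). Ccna2 and Mybl2 fell 10.5- and 11.1-fold, Mybl2 to a signal above the background in clone #2 only. Myc, by contrast, rose from 13.19 and 13.27 to 16.31 and 16.27, 8.35-fold (adjusted p = 6.81e-05), and Mxd1, a repressor that competes with MYC for MAX, rose at least 7.99-fold.

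The CCAAT box was present in 38 of 44 histone windows (86.4%), 46 of 61 windows of mitotic genes (75.4%) and 29 of 48 windows of DNA replication genes (60.4%), against 37.9% of all windows, 42.8% of windows of genes that fell and 33.5% of windows of genes that rose. The E2F motif TTTNGCGC was present in 10 of 44, 5 of 61 and 12 of 48 windows of these lists and in 1.84% of all windows. The 250 bases before the start of H3c8 (chr13:23535168-23535417, + strand) and H2bc7 (chr13:23574208-23574457, - strand) are shown as members whose signals fell 32.8- and 18.9-fold, with CCAAT or its reverse complement in capitals.
H3c8: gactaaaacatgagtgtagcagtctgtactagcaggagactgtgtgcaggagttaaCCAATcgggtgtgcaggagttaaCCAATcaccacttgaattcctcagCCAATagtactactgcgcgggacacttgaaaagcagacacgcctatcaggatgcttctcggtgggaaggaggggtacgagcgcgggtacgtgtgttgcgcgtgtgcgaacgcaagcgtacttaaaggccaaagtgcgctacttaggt
H2bc7: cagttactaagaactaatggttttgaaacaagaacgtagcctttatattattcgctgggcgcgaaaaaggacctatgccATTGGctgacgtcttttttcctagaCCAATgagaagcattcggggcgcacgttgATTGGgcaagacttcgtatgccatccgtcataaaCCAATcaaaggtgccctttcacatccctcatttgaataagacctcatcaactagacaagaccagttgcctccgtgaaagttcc
The matches of H3c8 begin at -194, -171 and -147 and those of H2bc7 at -171, -146, -117 and -83.

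Outside the cell cycle, the largest falls to a dim signal, by lower bound, were those of Otulinl (13.31 and 13.09 to 9.23 and 9.15, at least 13.6-fold), Slc16a12, a monocarboxylate transporter family member (at least 12.8-fold), Arrb1, which encodes β-arrestin 1 (12.77 and 12.75 to 8.15 and 8.97), Tmem64 (at least 8.76-fold), Frmd4b (at least 7.51-fold), Slco4a1, an organic anion transporter (at least 7.21-fold), Cdk19, a Mediator kinase (at least 6.91-fold), and Tcf7l2, a factor of WNT signaling (at least 6.89-fold). By this choice both LPS arrays were dim in each gene, and both untreated arrays exceeded 12. H1f1, H1f5 and H2bc3 belong to the same group of 12 falls, as does Hpgds.

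Of 34 p53 target and cell death genes, 14 rose and 7 fell, and 3 and 2 fell without the untreated array of clone #1 and of clone #2. The anti-apoptotic Bcl2a1b, Bcl2a1d and Bcl2a1a, whose sequences are nearly the same, rose 15.3-, 15.2- and 13.6-fold, and Sesn1, which restrains mTORC1, fell at least 2.29-fold. Of 42 ribosome biogenesis genes, 19 rose and none fell, with a median of 0.62. Grwd1, a ribosome assembly factor, rose 6.26-fold, Rrp12 3.31-fold and Rrp9 2.64-fold, and untreated Grwd1 and Rrp12 exceeded the background in clone #1 only. The changes of this list had a median of 0.38 in clone #1 and 0.87 in clone #2, and without the untreated array of clone #2, 5 rose, without that of clone #1, 9, without the LPS array of clone #2, 10, and without that of clone #1, 13.

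Of 50 oxidative phosphorylation and citric acid cycle genes, 4 fell and none rose, below the background share of falls, and 7 fell without the block. Only 1 fell without either untreated array or the LPS array of clone #1. Idh1 fell 4.12-fold, while Ndufs7 and Mdh1 fell under 2-fold and each lost the call without any 1 of 3 arrays (adjusted p up to 0.0984). Of 38 glycolysis and hypoxia genes, 6 rose and 9 fell, with 3 falls without the untreated array of clone #1, 4 without that of clone #2 and 5 without the LPS array of clone #1. Pfkfb3, which makes the activator of phosphofructokinase, rose from 7.96 and 7.99 to 12.37 and 12.43, at least 8.02-fold (adjusted p = 1.66e-05). Hk2 rose 7.72-fold, above the background untreated in clone #1 only, while Hk1 fell 6.66-fold, from 14.78 and 15.03 to 12.04 and 12.31 (adjusted p = 0.000103), so the hexokinases moved in opposite directions. Of 45 fatty acid and glycerolipid genes, 7 rose and 11 fell, but without the untreated array of clone #1, 1 and 4, without that of clone #2, 2 and 4, and without the LPS array of clone #1, 3 and 9. Elovl5 and Fads2, which elongate and desaturate fatty acids, fell 6.37- and 2.94-fold, and Agpat4, which makes phosphatidic acid, rose 4.32-fold. Lpin1 and Lpin3, the other lipins, were dim on all KO arrays and get no fold. Of 28 cholesterol genes, 2 rose (7.14%) and 3 fell (10.7%), close to the 7.97% and 10.8% of all genes. Abca1, the cholesterol exporter, was at least 4.46-fold higher.

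Of 28 ER chaperone and unfolded protein response genes, 9 rose and 1 fell, with Dnajb9 5.16-fold higher, Creld2 3.22-fold higher and the sensor Atf6 2.68-fold lower. Of 22 amino acid transporters, 7 rose and 3 fell, with 4 and 3 rises and 0 falls without the untreated arrays of clone #1 and #2, and 1 fall without the LPS array of clone #1. Slc15a3, a lysosomal peptide transporter, rose 21.8-fold, and Slc43a2 fell 11.7-fold from 14.63 and 14.95 to 10.20 and 12.27, a call lost without either untreated array (adjusted p up to 0.0944). Of 33 lysosomal genes, 3 rose (9.09%) and 7 fell (21.2%), against 7.97% and 10.8% of all genes. The falls numbered 0 without the untreated array of clone #1, 1 without that of clone #2 and 3 without the LPS array of clone #1, and without any 1 array 1 gene rose. The largest changes were those of Npc2 (2.55-fold higher) and Man2b1 (2.62-fold lower, not called without the untreated array of clone #1, adjusted p = 0.0658). Of 22 nuclear receptor genes, 2 rose and 6 fell, and 2 to 4 fell without any 1 array. The rises were 9.09% of the nuclear receptor list, near the 7.97% of all genes. Nr1d1, which encodes the clock repressor REV-ERBα, rose from 8.28 and 8.09 to 12.72 and 12.998, at least 11.02-fold (adjusted p = 2.06e-05). Ncoa3, a coactivator, fell 4.51-fold. Of 20 purinergic genes, 5 rose and 6 fell, but 4 of those that fell were dim in both treatments. Pde4b, which breaks down cyclic AMP, rose 17.7-fold and Panx1, an ATP-releasing channel, fell 3.46-fold (adjusted p = 0.00164, and up to 0.156 without either untreated array).

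**Figure D4:**
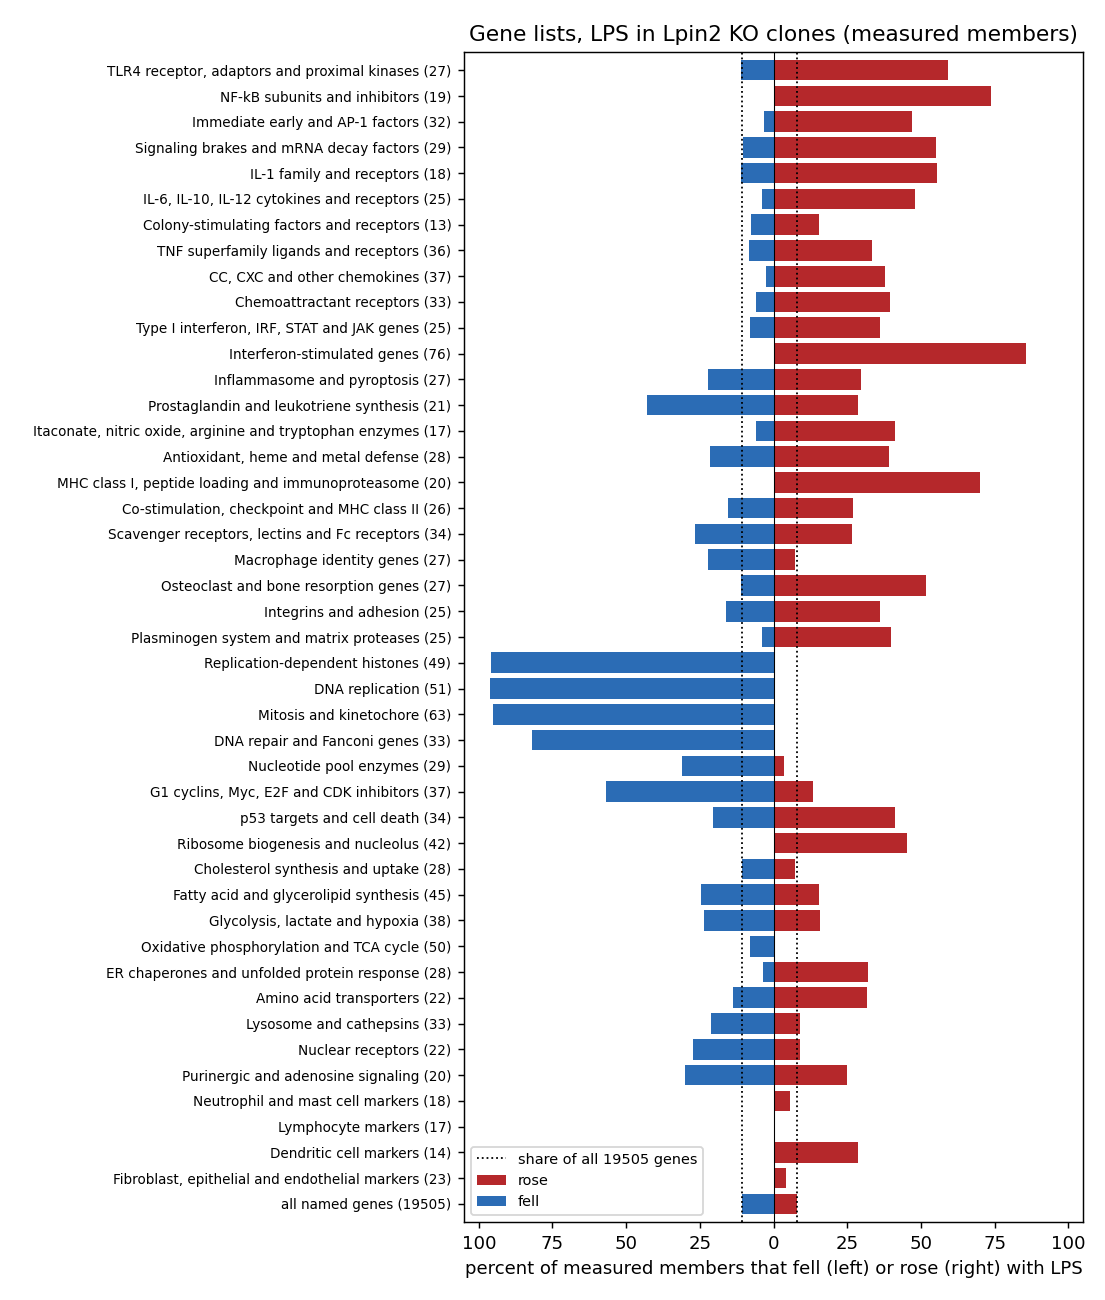
Percent of the measured members of each list (number in brackets) that rose (right, red) or fell (left, blue) with LPS in the KO clones, with the shares over all 19505 genes (7.97% and 10.8%) as dotted lines. Interferon-stimulated genes (65 of 76) and NF-κB genes (14 of 19) extend farthest to the right, and histones (47 of 49), DNA replication (49 of 51) and mitosis (60 of 63) farthest to the left.

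The change with LPS was higher in KO than in WT cells for 513 genes (2.63%) and lower for 565 (2.9%) in a limma interaction over all 6 arrays with the clone as a block. Without the block the numbers were 278 and 363. WT cells had 1 array per treatment, taken to vary as the LPS changes of the KO clones do, so the p-values hold no WT spread. The label of the WT array with LPS could not be checked apart from these small changes, and if it were wrong the differences from WT would not compare LPS responses. The WT change had a median of 0.09 over the genes that rose in KO, against 1.21 in KO, and of -0.09 over the genes that fell, against -1.18. Of the genes that rose in KO, 1030 of 1554 were higher with LPS in WT, and of those that fell 1450 of 2114 were lower.

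Several genes that led the KO response started from another level in WT. Cxcl2 gave 11.05 and 13.53 on the untreated and LPS arrays of WT, and Acod1 11.97 and 14.90, so both were above the background in untreated WT cells and dim in untreated KO cells. The change in WT was 2.48 for Cxcl2 and 2.93 for Acod1, lower than in KO (adjusted p of the difference 0.000111 and 0.000376). Tnf gave 16.18 and 16.41 in WT, a change of 0.23 against 3.44 in KO (adjusted p = 0.00228). The untreated level of these 3 genes was thus higher in WT than in either KO clone. Ccl22 and Tnc were dim on both WT arrays and rose at least 68.2- and 47.8-fold in KO. The change of Tlr4 was -2.96 in KO and -0.34 in WT (adjusted p = 0.00475), from a WT level that was already near the KO level with LPS. H3c8 stayed at 15.54 and 15.23 in WT. In the interferon-stimulated list 57 of 76 changes were higher in KO with the block and 10 without it, and in the histone list 45 of 49 were lower with the block and 44 without it. Leaving out an untreated KO array left 97 or 91 genes higher and 65 or 94 lower in KO (clone #1 and #2 in that order).

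**Figure D5:**
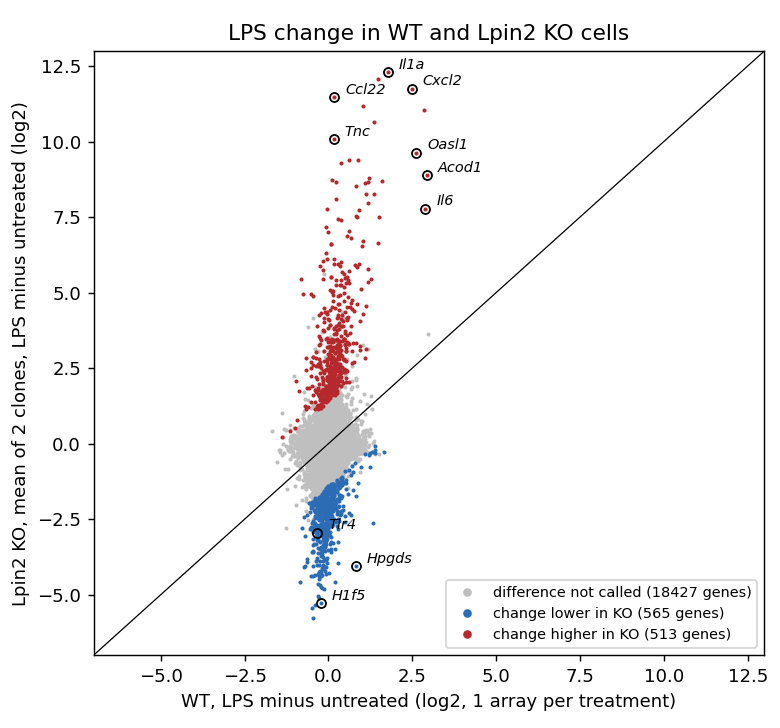
Change with LPS (log2) of each of 19505 named genes in WT cells (x axis, 1 array per treatment) and in the KO clones (y axis, mean of 2), with the line of equal change. The 513 genes with a higher and the 565 with a lower change in KO spread along the y axis, while only 6 genes pass 2 upward and none passes 2 downward along the x axis.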

How the data were processed

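Each of the 6 cultures gave 1 total RNA sample, which was hybridized to 1 Clariom S mouse array. The values are log2 signals that the authors computed by RMA, as deposited, with version and settings not given in the sources used here. Signals reached 18.56, high for RMA, so a variant with another signal scale is possible, and the folds hold for the deposited scale only. Each array of the deposited table held 28846 probe sets. They included 22206 for genes, 5222 negative controls, 1324 positive controls and 23 for background. Of the gene probe sets, 19572 had a symbol, and 55 genes with several were represented by their brightest probe set on average, leaving 19505 genes. No further normalization was applied. The number of arrays limits the precision.

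The LPS change of the KO clones was tested with limma 3.58.1 in R 4.3.3 (lmFit and eBayes, two-sided), with the clone as a block and Benjamini-Hochberg adjustment over the 19505 genes at a threshold of 0.05. The pairing rests on the clone number in the labels: a number names 1 clone in both treatments, and across genes the difference between the clones had a correlation of 0.222 between treatments. With the block, the p-values rest on the difference between the LPS changes of the 2 clones, moderated over all genes. They do not cover the difference in level between the clones. On simulated data with known changes, 27.2%, 96.9% and 100% of genes changed by 1, 2 and 4 log2 units passed the threshold. False positives made up 7.61% of all calls, above the nominal level. The simulation changed far fewer genes than were called in the data and drew its spread from the fitted limma model. These rates may therefore differ from those of the data. The interaction with WT used all 6 arrays.

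A lower bound of a fold put the 95th percentile of the negative controls of the treatment's arrays, averaged, in place of the dim mean signal. Genes dim in both treatments get no fold. The genes named are the 12 largest rises and falls above the background, the 12 largest of each by bound, up to 3 per list and direction, 16 genes of interest in the study, the 6 each way with the largest difference between the clones, and the 6 each way with the largest difference from WT. Ticam1, Cd14, Nfkbiz, Nfkbie, Nfkbid, Nfkbia, Nfkb2, Rel, Il33, Il1f9, Cxcl3, Cxcl11, Ccl7, Ccl3, Ccl2, Ifnb1, Isg15, Ifit1, Gbp2, Cmpk2, Mx2, Alox5 and Nos2 were added after their values were seen. The members and the 44 lists were chosen with earlier results of these data known. Promoter windows came from RefSeq (GRCm38.p6). Alternatives covered the block, the normalization, the filter on dim genes, the moderation, the threshold and leaving out each array. The fits that left out an array were run without the block.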

Additional observations from a re-analysis of the deposited data

Results flagged for a closer look

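The change with LPS differed between the genotypes, by limma's interaction test, in the direction of a higher value in KO for 513 genes and of a lower value for 565. The 6 genes with the largest positive difference (KO change minus WT change, log2) were Ccl22 (11.30), Ccl5 (10.62), Il1a (10.51), Serpinb2 (10.14), Tnc (9.92) and Il1b (9.29), all of which rose in both KO clones. All 6 were dim in untreated KO cells, so these values and their order include signal that was not above background and are not sizes of effect. The 6 with the largest negative difference were C130050O18Rik (-5.32), the linker histones H1f5 (-5.06), H1f3 (-4.96), H1f2 (-4.94) and H1f1 (-4.81), and Hpgds (-4.88), all dim in KO cells with LPS, so the same holds for them. WT cells had 1 array per treatment, and no WT spread entered the test. Among the 2634 gene probe sets that carried no symbol and entered no comparison, 123 rose with LPS in the KO clones and 186 fell.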

How the results depend on the processing

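No named gene called by the main fit changed direction under the alternatives in which it was tested. For named genes that were not called, changes of direction were not counted, and Nfatc1 is 1 that changed it. The filter at the 99th percentile kept only 121 of 218. More genes fell than rose in the KO clones, but not with that filter, and more differences from WT were lower than higher in KO, but not without the untreated array of clone #1 (97 higher, 65 lower). Leaving out each KO array in turn gave 580 to 1285 genes that rose and 828 to 1779 that fell, with the lowest counts without the untreated arrays (clone #2 and clone #1, in that order), and 91 to 544 genes higher and 65 to 631 lower in KO than in WT. The lone array of a treatment was then assumed to vary like the other treatment. These fits had no block, so the loss of an array and of the pairing by clone are mixed in them. The leave-one-out fits against WT and per list were chosen after seeing the data. With genes below the 99th percentile of the negative controls left out, 547 rose and 523 fell, of fewer genes tested. At an adjusted p under 0.01 the counts were 911 and 1233, over 2-fold in the mean of the clones 1006 and 1331, and over 2-fold in both clones 798 and 1029, which were the same counts with the test added. The methods' t-test gave 1 and 0 genes after Benjamini-Hochberg adjustment when paired by clone and 0 and 1 when unpaired, and 1228 genes fell at an unadjusted p under 0.05 in the paired form. Leaving out dim genes gave 861 genes lower in KO than in WT. Without the replicate block, 278 genes were higher and 363 lower in KO than in WT, and the counts per list became 2 falling immediate early genes, 0 falling IL-1 family genes, 7 rising TNF superfamily genes, 0 falling chemokines, 6 rising MHC class I genes, 7 falling oxidative phosphorylation genes, 0 rising neutrophil markers and 2 rising dendritic cell markers; the cause was not tested. Of 218 named genes, 14 lost the call without the block, 2 under a second quantile normalization and 4 under robust moderation. Without at least 1 array 58 lost it. Signals near the background limit what can be measured: 13092 genes were dim in both treatments.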
